A study of Mus musculus with 11 samples.

Results

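The genes described here are 8 genes of the core of AKT and mTOR signalling, Akt1, Akt2, Pik3ca, Pik3r1, Pdpk1, Mtor, Rptor and Tsc2, in the mouse mammary gland at parturition (L1). They were chosen by symbol, as the named list of this pathway's core, and all 8 were found among the 14847 genes that carried a symbol of their own in the expression table. The series profiled STAT5A binding and the histone mark H3K4me3 in mammary gland of mice during pregnancy and at parturition, together with RNA-seq, and its title asks in which order STAT5 and H3K4me3 come to mammary genes. Of its 11 samples, 1 carried expression values and was used here: poly(A) RNA-seq of whole mammary tissue, taken at parturition with the lymph nodes left out, from wild-type mice of the mixed background 129SV::FVB/N::C57BL/6. Its labels name no age, treatment or number of animals.

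Signals from the insulin, IGF and ErbB receptors recruit class IA phosphoinositide 3-kinase (PI3K), a pair of a catalytic subunit such as the Pik3ca product and a regulatory subunit such as the Pik3r1 product. The lipid made by PI3K brings AKT to the membrane, where PDK1, encoded by Pdpk1, phosphorylates it. AKT in turn inhibits the TSC1-TSC2 complex, which holds back the small GTPase RHEB, and RHEB activates the kinase mTOR in complex 1, whose defining subunit is Raptor (Rptor). In the mammary gland AKT1 is known for its role in the survival of secretory epithelium and in the lipid and glucose metabolism of milk production, and Akt1 is a known target of STAT5 there.

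With 1 library there is no replicate spread, so every value below is a description with no test, and no neighbouring pair in an order of levels can be said to differ. Values are FPKM, fragments scaled by locus length and by mapped fragments, so that levels of different genes can be set side by side, and the depth behind them is unknown. For a gene with several loci, the highest value stands for the gene. Markers of the milk-secreting epithelium were high, with the casein gene Csn2 at 170861 FPKM, the whey protein gene Wap at 63664, the transcription factor gene Elf5 at 577 and the keratin gene Krt18 at 179. The tissue also held adipocyte RNA, with Adipoq at 115 FPKM and 5 of 5 markers between 5.51 and 723. The 5 skeletal muscle markers lay between 8.37 and 37.2 FPKM, 4 measured myoepithelial markers between 3.37 and 54.2, 4 fibroblast markers between 2.40 and 82.6, and 4 endothelial markers between 3.45 and 15.1. The 3 measured macrophage markers lay between 0.54 and 3.004 FPKM, and the lymphocyte markers reached at most 2.47. Which of these cells supplied the transcripts of the 8 genes was not tested, and in whole tissue fewer cells of a type and less RNA per cell cannot be told apart.

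The 8 genes did not share a level: they spanned a 427-fold range, from Akt1 at 169 FPKM to Pik3ca at 0.39. In descending order they were Akt1, Pik3r1, Akt2, Pdpk1, Tsc2, Rptor, Mtor and Pik3ca. Their median was 6.68 FPKM, against a median of 3.90 and quartiles of 0.91 and 11.4 over all named genes. In all, 3 of the 8, Akt1, Pik3r1 and Akt2, reached 10 FPKM, beside 27.9% of all named genes, which leaves the count close to the background. At 5 FPKM they were 5 of the 8 beside 44.3% of named genes, and at 20 FPKM 2 of the 8 beside 15.0%. No member was listed at 0, beside 599 of the 14847 named genes, a share so small that 0 of 8 is close to the background. The 5 genes from Akt2 down to Mtor differed by a factor of 3.01, while Akt1 and Pik3r1 stood above them and Pik3ca below. That factor was 1.70 with the FPKM of all loci of a gene added, which put Tsc2 at 9.95 FPKM above Pdpk1 at 7.99, and 7.56 with the median over a gene's loci, so the order within these 5 genes is not fixed.

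**Figure D1:**
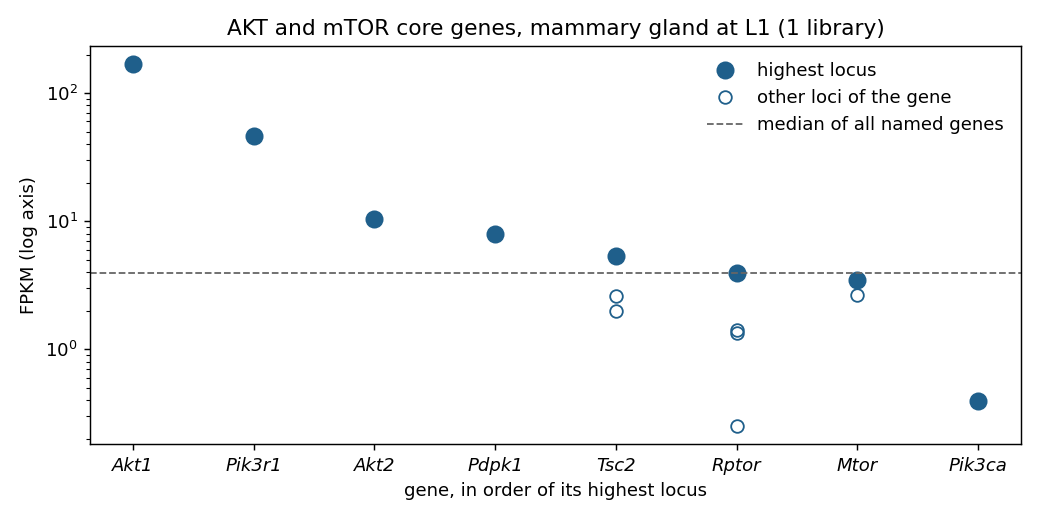
FPKM on a log axis of every locus of the 8 genes in the 1 library at L1, filled for a gene's highest locus and open for its other loci, with the median of all named genes (3.90 FPKM) as a dashed line. Akt1 at 169 and Pik3r1 at 46.0 FPKM stand above the rest, Pik3ca at 0.39 stands below, and Rptor and Mtor lie at the dashed line.

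Akt1, which encodes the AKT isoform best known from cell growth and survival, was the highest of the 8. Its single locus, XLOC_006122, had 169 FPKM, which placed it at rank 284 of the 14847 named genes, at percentile 98.1 and 43.2 times their median. Akt2, the isoform known for insulin action in fat and muscle, had 10.4 FPKM at its locus XLOC_024089, at percentile 73.0. Akt1 thus stood 16.1 times as high as Akt2, and made up 94.2% of their summed FPKM. The treatment of reads that match both of these related genes is not stated in the labels.

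The RefSeq annotation of the build GRCm38.p6 gives Akt1 2 start sites, and the table's single Akt1 locus does not say which of them was in use. Both windows, each from 250 bases before to 50 bases after a start, are shown because the gene stands apart from Akt2 and because they differ in base composition. CG dinucleotides are in capitals. The upstream window held 8 of them and the downstream window 42, against a median of 7 (quartiles 3 and 20) over 32817 windows of all genes.
Akt1 upstream start, chr12:112674835-112675134, minus strand: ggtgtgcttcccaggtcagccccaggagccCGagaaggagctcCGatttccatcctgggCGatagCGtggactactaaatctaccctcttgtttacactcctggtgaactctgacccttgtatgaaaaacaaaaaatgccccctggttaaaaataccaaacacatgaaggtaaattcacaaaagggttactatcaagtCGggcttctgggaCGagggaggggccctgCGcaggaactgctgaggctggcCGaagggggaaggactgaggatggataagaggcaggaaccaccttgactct
Akt1 downstream start, chr12:112674227-112674526, minus strand: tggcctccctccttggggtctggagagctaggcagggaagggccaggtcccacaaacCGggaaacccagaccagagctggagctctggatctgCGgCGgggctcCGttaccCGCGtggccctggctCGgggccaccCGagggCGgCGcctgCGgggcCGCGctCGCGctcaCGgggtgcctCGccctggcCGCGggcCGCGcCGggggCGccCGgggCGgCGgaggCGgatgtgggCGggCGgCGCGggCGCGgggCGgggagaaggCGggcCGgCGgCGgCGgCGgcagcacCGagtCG

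Since the series concerns STAT5, the 14 RefSeq windows of the 8 genes were searched for TTCNNNGAA, the core of the sequence that STAT5 recognises, which reads the same on both strands. A match was found in 3 of the 14 windows, 1 each of Akt2, Pdpk1 and Mtor, beside 8.29% of all windows, and in neither window of Akt1. The forkhead motif TGTTTAC, bound by the FOXO factors that AKT phosphorylates, was searched on both strands and matched 1 of the 14 windows, the upstream one of Akt1, beside 3.65% of all windows. The E-box CACGTG, which also reads the same on both strands and is bound by TFEB among other factors, matched none of the 14, beside 7.15% of all windows. These are matches of letters in a short window and say nothing of binding. The 4 matches are shown in capitals with 20 bases on either side, in the direction of the gene.
Akt2, chr7:27591372-27591420, plus strand: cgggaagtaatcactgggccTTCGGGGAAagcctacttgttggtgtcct
Pdpk1, chr17:24150882-24150930, minus strand: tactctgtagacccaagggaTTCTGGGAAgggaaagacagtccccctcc
Mtor, chr4:148448334-148448382, plus strand: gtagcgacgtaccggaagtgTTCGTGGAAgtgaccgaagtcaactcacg
Akt1, chr12:112675019-112675065, minus strand: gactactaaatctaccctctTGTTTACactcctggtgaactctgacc
Counted from the annotated start, the match begins 160 bases before it in Akt2, 228 bases before it in Mtor and 161 bases before it in Akt1. In Pdpk1 the match begins at base 13 of the transcript from its upstream start.

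PI3K subunits lay at both ends of the order. Pik3r1, which encodes the regulatory subunit p85-alpha, had 46.0 FPKM at its single locus XLOC_007299, at percentile 93.7 and 11.8 times the median of named genes. Pik3ca, which encodes the catalytic subunit p110-alpha, had 0.39 FPKM at its single locus XLOC_016931, at percentile 15.3 and 0.10 times that median. Pik3r1 was therefore 117 times as high as Pik3ca, or 33.7 times with 1 added to each FPKM. In the RefSeq annotation Pik3ca overlaps Kcnmb3, for which no locus under that symbol alone was found. No locus that carried several symbols named Pik3ca. Loci without a symbol held 53.3% of the summed FPKM of the table, and whether some of them hold Pik3ca transcripts was not tested.

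The related subunits placed both genes within their families. Among the class IA catalytic genes, Pik3ca had 4.51% of the summed FPKM, whereas Pik3cb, encoding p110-beta, had 7.50 FPKM or 85.7%, and Pik3cd, the leukocyte-enriched p110-delta gene, had 0.86 FPKM or 9.79%. Among the class IA regulatory genes, Pik3r1 had 59.3% of the sum, Pik3r2 had 24.4 FPKM or 31.5%, and Pik3r3 had 7.12 FPKM or 9.18%. Summed, the regulatory genes came to 77.5 FPKM against 8.75 FPKM for the catalytic genes, a ratio of 8.86. This ratio was 5.13 with the FPKM of all loci of a gene added, and 18.8 with the median over a gene's loci, since Pik3cb had 4 loci.

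**Figure D2:**
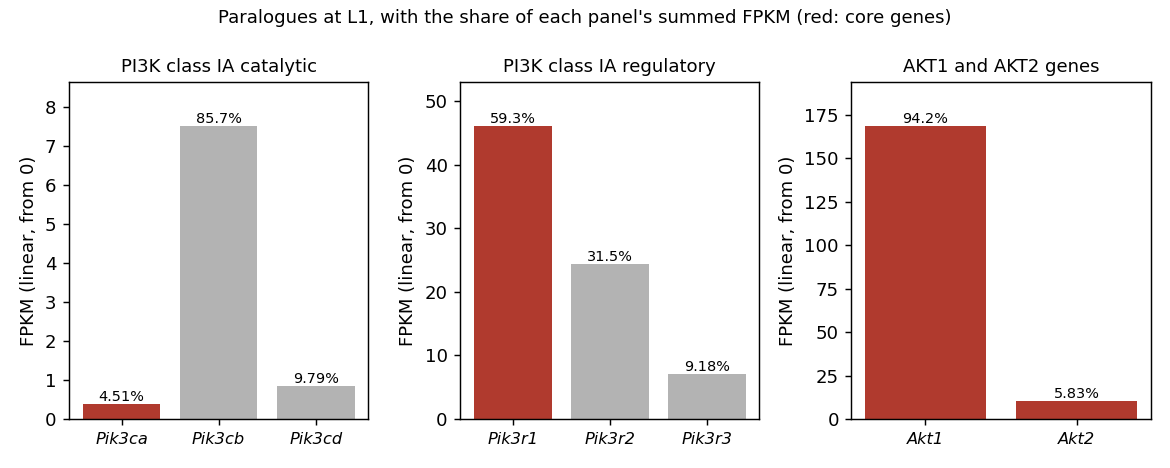
FPKM, on linear axes from 0, of the class IA PI3K catalytic genes, the class IA regulatory genes and the pair Akt1 and Akt2 in the 1 library at L1, with each gene's share of its panel's summed FPKM above its bar and the core genes in red. Akt1 with 94.2% and Pik3r1 with 59.3% lead their panels, whereas Pik3ca holds 4.51% in its own.

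The other PI3K genes are given beside the 27.9% of all named genes that reached 10 FPKM. Of the 8 catalytic genes of classes I, II and III, 1 reached it, and the median was 6.30 FPKM, or 1.70 with the median over a gene's loci. That gene was Pik3c2g, a class II PI3K, at 880 FPKM, 5.22 times Akt1. Its level rested on the locus XLOC_023922, as its other loci had 0.53 and 0.077 FPKM. The class II genes Pik3c2a and Pik3c2b had 8.49 and 8.15 FPKM. Of the 7 genes of the regulatory list 2 (28.6%) reached 10 FPKM, which is near that background. Pik3ap1, at 0.75 FPKM, is among the 7 although it encodes an adaptor and not a regulatory subunit. Leaving it out would raise both this share and the list median. The list median was 2.83 FPKM, or 15.8 over its genes at or above 1 FPKM. The class III partner Pik3r4 had 2.83 FPKM and the class IB subunit gene Pik3r5 was lowest at 0.27.

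Upstream of PI3K, the median of 12 receptor and adaptor genes was 5.35 FPKM. Of these, 3 (25%) reached 10 FPKM, which is near the 27.9% of all named genes. The 3 were the insulin receptor substrate genes Irs2 at 17.5 and Irs1 at 13.7 FPKM and the adaptor gene Grb2 at 15.1. The adaptor gene Gab1 followed at 6.93. The receptor gene Erbb4 was lowest at 0.58 FPKM, the value of the highest of its 9 loci. With the FPKM of all loci of a gene added, Erbb4 had 2.68 FPKM and the receptor gene Igf1r was lowest at 1.75. Among the phosphatases that remove the PI3K lipid products, 2 of 5 measured genes (40%) reached 10 FPKM, beside the same 27.9%. The list median was 6.08 FPKM, or 0.90 with the median over a gene's loci. Inppl1, encoding the phosphatase SHIP2, had 11.6 FPKM, Inpp4b 6.08 and Inpp4a 1.71, and Inpp5d, the SHIP1 gene of blood cells, was lowest at 0.90. Inpp5e and Inpp5k were not analysed here.

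Pdpk1 stood between AKT and the mTOR genes. Its single locus XLOC_011634 had 7.99 FPKM, at percentile 67.3 and 2.05 times the median of named genes. This was 2.30 times the highest locus of Mtor. With the FPKM of all loci of a gene added, Mtor had 6.14 and Rptor 6.97 FPKM, closer to Pdpk1. Akt1 stood 21.1 times as high as Pdpk1. In the list of AKT and related kinases, 3 of 7 genes (42.9%) reached 10 FPKM, beside 27.9% of all named genes. The list median was 8.97 FPKM. Next to Akt1 came Sgk1, a related kinase that PDK1 also phosphorylates, at 40.0 FPKM, and Sgk2 had 8.97. Among genes that restrain AKT, 5 of 12 (41.7%) reached 10 FPKM, beside the same 27.9%, and the list median was 7.90. The protein phosphatase 2A genes Ppp2r1a, Ppp2ca and Ppp2cb had 35.3, 17.4 and 10.8 FPKM, and Phlpp1, encoding a phosphatase that acts on AKT, was lowest at 0.39. Keap1, at 16.1 FPKM, stands in this list although it is known as a sensor of oxidative stress and not as an AKT phosphatase.

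Tsc2, which encodes tuberin, the GTPase-activating subunit of the TSC complex, was carried by 3 loci. XLOC_011645 had 5.37 FPKM, XLOC_012183 had 2.61 and XLOC_012184 had 1.98, so that the highest made up 53.9% of their sum. At its highest locus Tsc2 was at percentile 57.6, and at 2.07 times the level of Tsc1, the gene of its partner hamartin, at 2.59 FPKM. With the median over loci the ratio was 1.01, and with the sum 3.85. Tsc2 overlaps Pkd1 in RefSeq, whose highest of 3 loci had 1.87 FPKM, and the labels do not state whether counting used the strand. The third subunit gene Tbc1d7 had 5.96 FPKM. Rheb, the GTPase that the TSC complex inactivates, had 96.0 FPKM, 17.9 times the highest locus of Tsc2, whose loci added came to 9.95 FPKM. Rheb was the 1 gene of 5 (20%) in this list to reach 10 FPKM, beside 27.9% of all named genes. The list median was 5.37 FPKM, or 2.61 with the median over loci, and the related Rhebl1 had 0.49.

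Mtor and Rptor lay near the middle of all named genes. Mtor, encoding the kinase shared by both mTOR complexes, had 3.47 FPKM at XLOC_018881 and 2.67 at XLOC_020327, and its highest locus was at percentile 47.4. Mtor overlaps the gene Angptl7 in RefSeq, which had 0.50 FPKM. Rptor, encoding the subunit that recruits substrates to complex 1, was at percentile 50.3. It had 3.95 FPKM at XLOC_003916, 1.41 at XLOC_005519, 1.35 at XLOC_005518 and 0.25 at XLOC_005520. In RefSeq the non-coding RNA gene Rptoros overlaps Rptor, and other non-coding RNA genes overlap Akt1, Pdpk1 and Mtor. No locus under the symbol alone was found for any of these non-coding genes. The highest locus made up 56.6% of the summed FPKM of Mtor and 56.8% of that of Rptor. Rptor stood at 1.14 times Mtor and at 1.43 times Rictor, the gene of the defining subunit of complex 2, which had 2.76 FPKM. Both ratios turned round with the median over loci, to 0.45 and 0.50, so Rptor cannot be placed above or below Mtor or Rictor. Mtor was above Rictor by highest locus, by the sum (6.14 FPKM) and by the median over loci (3.07 FPKM). With 1 library these 2 genes cannot be said to differ.

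The 2 inhibitory subunit genes of the mTOR complexes were higher than the kinase itself. Akt1s1, encoding PRAS40, an inhibitor of complex 1 that AKT phosphorylates, had 34.3 FPKM, 9.87 times the highest locus of Mtor. Deptor, encoding an inhibitor of both complexes, had 30.3 FPKM, 8.72 times that locus. With its loci added Mtor had 6.14 FPKM, which makes both ratios smaller and leaves Akt1s1 and Deptor above it. Akt1s1 and Deptor were the 2 of the 5 genes of complex 1 (40%) that reached 10 FPKM, beside 27.9% of all named genes. The median of the 5 was 8.35 FPKM. The shared subunit gene Mlst8 had 8.35 FPKM. Of the 7 genes of complex 2, Deptor alone (14.3%) reached 10 FPKM, beside the same 27.9%. The median of the 7 was 5.81 FPKM, or 3.56 with the median over loci. Mapkap1, the SIN1 gene, had 9.88 FPKM, Prr5 had 5.81 and Prr5l was lowest at 0.55.

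**Figure D3:**
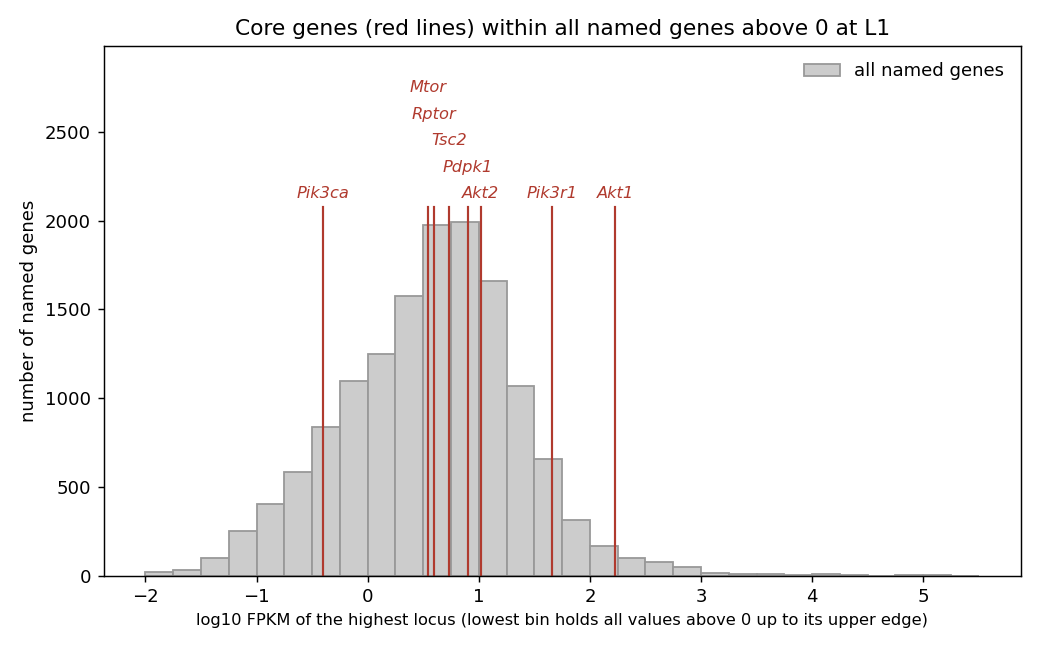
Histogram of log10 FPKM of the highest locus over all named genes above 0 in the 1 library at L1, with a red line for each of the 8 genes. Akt1 at percentile 98.1 and Pik3r1 at percentile 93.7 lie in the upper tail, Pik3ca at percentile 15.3 lies in the lower one, and the other genes lie between percentiles 47.4 and 73.0.

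Genes that carry amino acid and energy signals to mTOR complex 1 are also given beside the 27.9% of all named genes at or above 10 FPKM. One list holds the RAG GTPases and Ragulator, which bring the complex to the lysosome, together with the lysosomal transporter gene Slc38a9 and the folliculin genes Flcn, Fnip1 and Fnip2. Of its 12 measured genes 6 reached 10 FPKM, and the median was 12.4, or 18.8 over those at or above 1 FPKM. The Ragulator genes Lamtor2, Lamtor5 and Lamtor1 had 126, 63.7 and 45.0 FPKM and Rraga had 44.9, whereas its paralogue Rragb was lowest at 0.13 (Lamtor4 was not analysed here). Of 11 GATOR and sensor genes, which set the nucleotide state of the RAG GTPases, 2 reached 10 FPKM and the median was 4.40. These were Sec13 at 52.1 FPKM, also a coat protein gene of secretory vesicles, and Seh1l at 13.7, also a nuclear pore gene, followed by Nprl2 at 8.61 and Sesn3 at 7.49, with Depdc5 lowest at 1.86. Of 10 genes of AMPK, the energy sensor that acts on TSC2 and Raptor, and its activator LKB1, 5 reached 10 FPKM and the median was 9.61, or 4.65 with the median over a gene's loci. Cab39, a partner of LKB1, had 38.7 FPKM. Of the catalytic genes, Prkaa2 had 28.8 FPKM, or 0.71 with the median over its 3 loci, and Prkaa1 had 3.01. Prkab1 had 24.9 and Prkag1 21.3 FPKM, and the muscle subunit gene Prkag3 was listed at 0.

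Downstream, 12 of 15 genes (80%) of mTOR complex 1 substrates and effectors reached 10 FPKM, beside 27.9% of all named genes. The list median was 23.3 FPKM, or 16.1 with the median over a gene's loci. The ribosomal protein gene Rps6 had 393 FPKM, the translation repressor gene Pdcd4 184, the initiation factor gene Eif4b 75.02 and Lpin1, a phosphatidate phosphatase gene, 43.6, while the lysosomal transcription factor gene Tfeb was lowest at 5.22. Of 12 AKT substrate genes 5 (41.7%) reached 10 FPKM, beside the same 27.9%. The list median was 8.75 FPKM, or 7.41 with the median over a gene's loci. Acly, encoding the enzyme that makes cytosolic acetyl-CoA for lipid synthesis, had 573 FPKM and the cell death gene Bad 27.7. The glucose transport regulator gene Tbc1d4 had 15.3 FPKM, or 38.7 with its loci added, which is above Bad. The cell cycle inhibitor gene Cdkn1b had 12.3 FPKM, and Cdkn1a was lowest at 4.58. Several of these genes serve the synthesis of protein or lipid in many cell types.

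**Figure D4:**
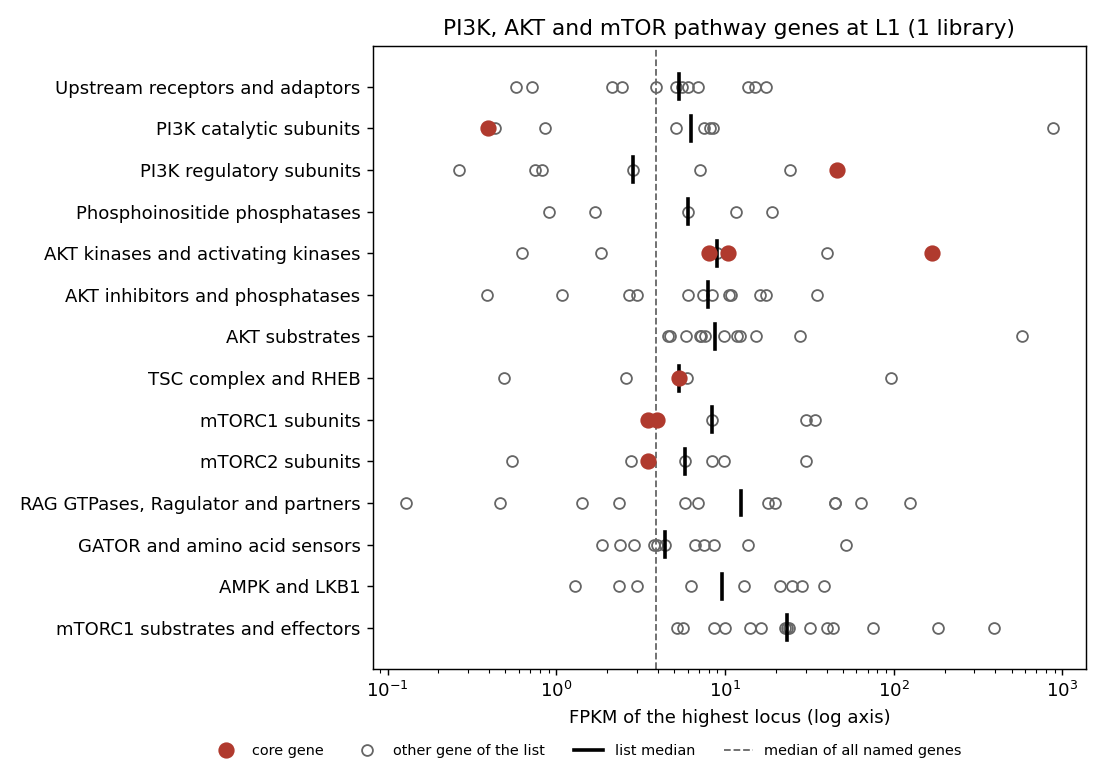
FPKM of the highest locus, on a log axis, of the measured genes of 14 pathway lists in the 1 library at L1, with the core genes in red, the list medians as black bars and the median of all named genes (3.90 FPKM) as a dashed line; Prkag3, listed at 0, is not drawn. List medians run from 2.83 FPKM for the PI3K regulatory subunits to 23.3 FPKM for the mTOR complex 1 substrates and effectors. The PI3K regulatory list also counts the adaptor gene Pik3ap1, and its median would be higher without it. With the median over a gene's loci the lowest list median is 0.90 FPKM, for the phosphoinositide phosphatases.

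Across all 14 lists, 125 of 128 genes were measured, and 117 of these were not among the 8. Of the 117, 46 (39.3%) reached 10 FPKM, with a median of 7.40 FPKM, against 27.9% and 3.90 FPKM over all named genes. Akt1 was exceeded by 4 of them, Pik3c2g, Acly, Rps6 and Pdcd4, and Pik3ca lay below 113 of them. With the median over a gene's loci 2 exceeded Akt1, since Pik3c2g and Pdcd4 each rest on 1 locus; the other 4 loci of Pdcd4 had at most 2.13 FPKM. The share of genes at or above 10 FPKM was higher than 27.9% in 9 lists and lower in 5. Shares near 27.9% are counted too, such as 28.6% for the PI3K regulatory list and 25% for the receptors and adaptors. The lists include the 8 genes, and both mTOR complexes hold Mtor, Mlst8 and Deptor, so the lists are not separate sets.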

How the data were processed

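Whole mammary tissue of wild-type mice at parturition was profiled by poly(A) RNA-seq with TruSeq libraries, per the labels' protocols. The submitters' processing notes name CASAVA, TopHat and mm9; the program that assembled loci and computed the values is not named there or in the file. The authors deposited FPKM for 30305 loci of 1 library: 21958 with 1 symbol, 117 with several, which were left out, and 8230 with none. No read counts were given, so no depth, interval or detection limit can be stated.

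A gene took its highest locus, since 3832 of 14847 named genes had several loci. Percentiles are ranks among named genes, with no minimum on FPKM. Symbols of the lists were matched directly or, for 3 genes, through a unique older symbol in RefSeq's GRCm38.p6 table. The deposited STAT5A and H3K4me3 lists were not used: nothing at hand ties their mm9 positions to genes, so the planned comparison was not made. Promoter windows came from RefSeq, GRCm38.p6. The text names the 8 members, their complements Tsc1 and Rictor, the 4 highest and the lowest gene of each list, and cell type markers; values of some genes under this rule are not reported here. Other genes, such as Pik3cd, Pik3ap1 and Angptl7, were named after their values were seen. The members and lists were chosen with earlier results of these data known. With 1 library, no likeness of pattern between genes was computed. Python 3.11.15, pandas 2.3.3 and numpy 2.4.6 were used, and the steps were tested on simulated data.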

Additional observations from a re-analysis of the deposited data

How the results depend on the processing

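Of the alternatives tried, adding up the loci of a gene or taking their median changed Mtor, Rptor and Tsc2, the members with several loci, to 6.14 and 3.07, 6.97 and 1.38, and 9.95 and 2.61 FPKM, and left the other 5 members as they were. The count of members at 10 FPKM stayed at 3 under both and with a minimum of 1 FPKM. It was 5 at a threshold of 5 FPKM and 2 at 20 FPKM. The members' median percentile, 62.4, was 67.6 with the sum, 61.7 with the median, 55.6 among genes at or above 1 FPKM, which leaves out Pik3ca, and 62.1 against genes with 1 locus. Rptor to Mtor (1.14) was 1.13 with the sum and reversed to 0.45 with the median of loci, and Rptor to Rictor (1.43) was 2.53 and reversed to 0.50. Tsc2 to Tsc1 (2.07) was 3.85 and 1.01. With 1 added to each FPKM the ratios were 14.8 for Akt1 to Akt2, 33.7 for Pik3r1 to Pik3ca, 1.11 for Rptor to Mtor, 1.32 for Rptor to Rictor and 1.77 for Tsc2 to Tsc1. Chosen after seeing the data, the same change put the class IA regulatory to catalytic ratio at 6.86 and the share of Akt1 in the sum with Akt2 at 93.7%. Lists above the background share numbered 8 to 13 of 14 over the 5 alternatives, against 9. The comparison with STAT5A peaks and H3K4me3 regions was not run. No paired analysis was possible because 1 library was used. With depth unknown, the precision of low values such as that of Pik3ca cannot be stated.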
